A study of Mus musculus with 12 samples.

Results

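The 40 genes described here encode proteins that make ribosomes: RNA polymerase I, the enzyme that transcribes the long ribosomal RNA precursor, and the nucleolar factors that cut, modify, fold and package it. They were chosen by name, as a list of gene symbols, from the 35709 genes in the deposited table. No measured value entered the rule, but the list was chosen with earlier results of these data known. All 40 matched a row, and all 40 were among the 20244 genes that passed the filter on low values and were tested.

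RNA was sequenced from hepatocytes purified from livers of male C57BL/6J mice 8 to 10 weeks old, 48 h after an injection into the peritoneum. Mice received either olive oil alone or carbon tetrachloride (CCl4), which injures hepatocytes, given at 0.4 mg per g. The controls, Alb-Cre, carry Cre recombinase under the albumin promoter, and the labels describe Alb-R3 mice as lacking the receptor gene Fgfr3 in hepatocytes. Each of the 4 combinations of genotype and treatment had 3 samples. Cre driven by the albumin promoter acts in cells that have switched that promoter on, so other liver cells that come through the purification keep the gene. The labels do not say that the samples of a group came from separate animals, so each p-value here measures the spread of these samples alone, possibly a technical one.

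Ribosome production starts in the nucleolus, where RNA polymerase I transcribes the precursor from repeated ribosomal RNA genes. Small nucleolar ribonucleoproteins (snoRNPs) guide chemical modification of the precursor, the box C/D class placing methyl groups on riboses and the box H/ACA class turning uridines into pseudouridines. Large assemblies then cleave it and build the small and the large ribosomal subunit, and in liver the pathway is known to be engaged when quiescent hepatocytes re-enter the cell cycle after injury or resection.

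Fgfr3 was read in each library as a check of the labels. Its normalized count in replicates 1, 2 and 3 was 735, 888 and 988 in Alb-Cre oil, 523, 651 and 1109 in Alb-R3 oil, 951, 706 and 753 in Alb-Cre CCl4, and 478, 372 and 382 in Alb-R3 CCl4. The library labelled Alb-R3 oil replicate 3 held the highest value of the 12, while after CCl4 the Alb-R3 libraries lay below the Alb-Cre libraries. The labels do not state which exons the deletion removes, and transcript from other exons would still be counted. Hepatocyte markers were abundant in all 12 libraries, with Alb between 1133000 and 2422000. Library totals ran from 27200000 to 38800000. In Alb-R3 CCl4 replicate 1, mitochondrially encoded genes took 32.3% of the total against 6.22% to 12.8% in the other 11 libraries. The same library's summed Kupffer cell and macrophage markers came to 15210 against 936.7 to 3452 elsewhere. Its neutrophil and monocyte markers summed to 1426 against 17.29 to 86.69. Its hepatocyte markers had the lowest sum of the 12, at 2116000 against 2814000 to 3736000. Its part in the results was not tested, and the counts of called members are also given without it.

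On the deposited normalized counts, a minority of the 40 genes passed the threshold after CCl4 across both genotypes, and most of those rose. Not passing does not show that a gene stayed at its level after oil. In the CCl4 effect averaged over Alb-Cre and Alb-R3 (6 libraries against 6), 8 members rose and 1 fell. The risers were Nop58, Rrp12, Rrp1b, Gar1, Polr1e, Nolc1, Tsr1 and Nop56, by 0.59 to 1.15 on the log2 scale, and the one that fell was Rcl1, by 0.46. Calls rest on limma with a mean-variance trend on log2(normalized count + 1), with Benjamini-Hochberg adjustment over all tested genes and a threshold of 0.05. The 9 called members are 22.5% of the 40, close to the 21.6% of all tested genes called in this comparison. Rises made up 20% of the members against 12.8% of all genes. The median log2 fold change of the members was 0.21, against 0.02 for all tested genes, and 33 of 40 estimates were above 0. In these bulk samples, a change in the mix of cells and a change in RNA per cell cannot be told apart. The count was 8 higher and 2 lower when Alb-R3 CCl4 replicate 1 was left out, and 9 higher and 1 lower when Alb-Cre CCl4 replicate 1 was.

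How many members passed depended on how libraries were put on 1 scale. The deposited normalized counts summed to less after CCl4 in 5 of 6 libraries than in each oil library, whereas FPKM (fragments scaled by gene length and library total) sets libraries against their own totals. On FPKM, 22 members rose and 0 fell, and with totals equalized over genes not encoded in mitochondria, 28 rose and 0 fell. The share of all tested genes called on these scales is not given here, so these counts are not set against it. Those scales also lifted the median of all tested genes, to 0.15 and 0.28, and that of the members to 0.46 and 0.52. Relative to all genes the members' median was thus higher on each of these scales. As a share of the total, the 40 genes took 0.0747% to 0.0862% of the normalized counts in the oil libraries and 0.0876% to 0.117% in the CCl4 libraries, without overlap. In the averaged effect, Nop56, Nop58, Nolc1, Rrp12, Tsr1 and Rrp1b kept their call under each alternative tried. Rcl1 lost its call on both of those scales and under quantile normalization. Polr1e and Gar1 lost theirs under quantile normalization.

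**Figure D1:**
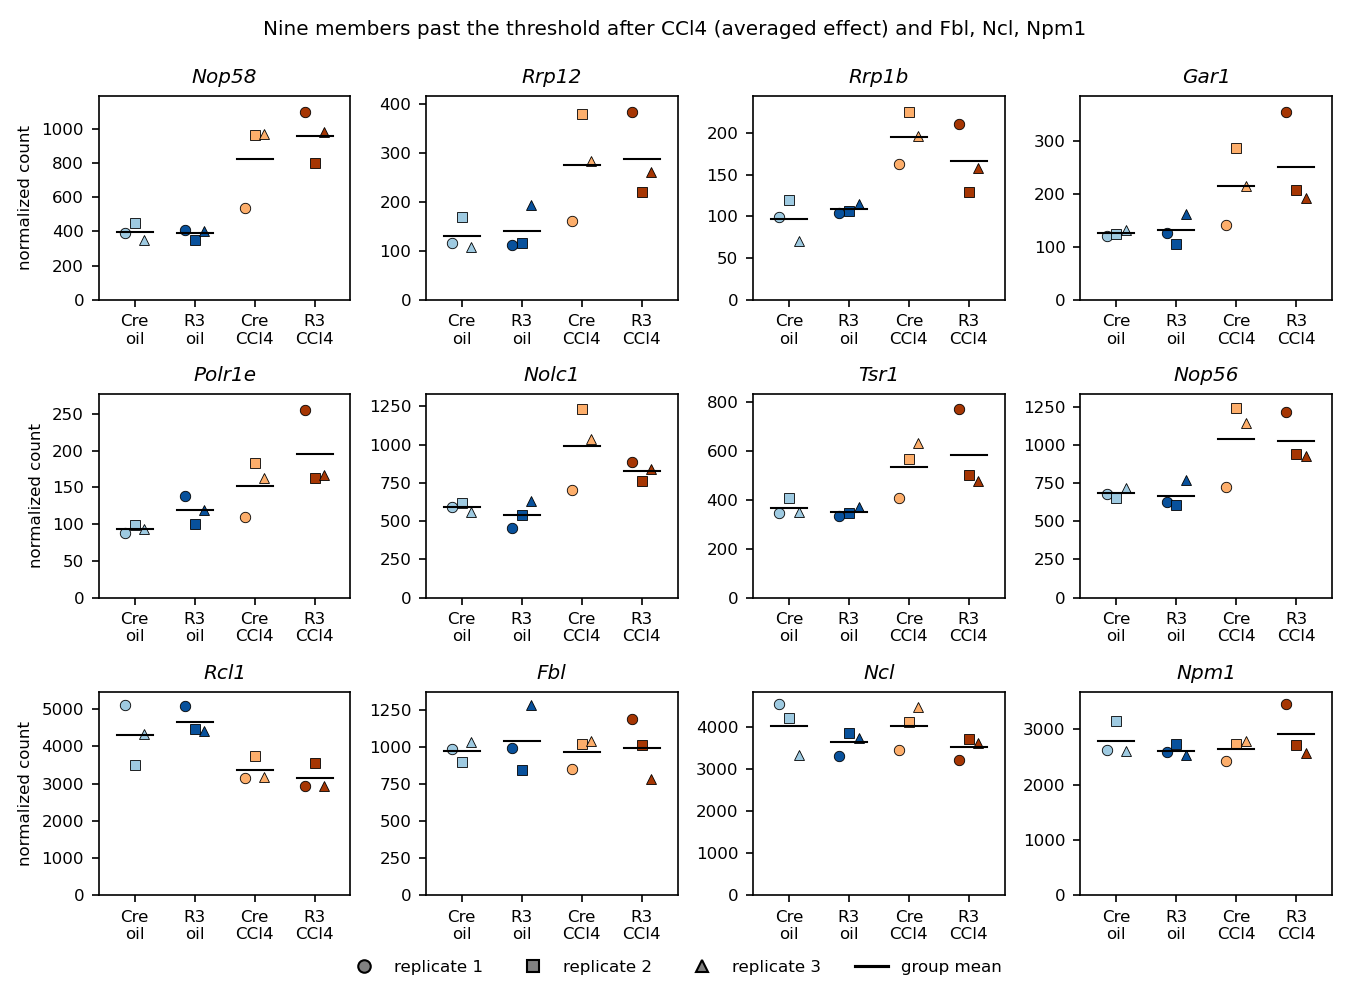
Normalized count (y axis, from 0) in each library for the 9 members past the threshold in the averaged CCl4 effect and for Fbl, Ncl and Npm1, by group (x axis). Symbols are replicates and bars group means of 3. Nop58 was at 349 to 449 in the oil libraries and 539 to 1099 after CCl4, while Fbl, Ncl and Npm1 overlapped between treatments.

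Within a genotype, with 3 libraries against 3, fewer members passed. In Alb-Cre, 2 members rose (Nop58 and Rrp1b) and 0 fell, which is 5% of the members against 4.45% of all tested genes called in either direction and 3.46% called higher. In Alb-R3, 5 rose (Nop58, Nop56, Nolc1, Rrp12 and Tsr1) and Rcl1 fell, which is 15% against 17.8% called in either direction, with 12.5% higher against 10.9%. The median of the members was 0.16 for Alb-Cre (29 of 40 above 0) and 0.22 for Alb-R3 (33 of 40 above 0). Kupffer cell and macrophage markers moved with the Alb-R3 comparison: 11 of 11 rose there and 0 of 11 passed in Alb-Cre. Their sum was 936.7 to 1300 in Alb-R3 oil, 2551 to 15210 in Alb-R3 CCl4, 1414 to 2865 in Alb-Cre oil and 1590 to 2076 in Alb-Cre CCl4. Stellate cell and fibroblast markers rose in 7 of 8 in Alb-R3 and 3 of 8 in Alb-Cre, and in 6 of 8 in the averaged effect. Their sum was 495.9 to 676.7 in Alb-R3 oil, 1153 to 3119 in Alb-R3 CCl4, 1204 to 1349 in Alb-Cre oil and 1797 to 2480 in Alb-Cre CCl4. Of the endothelial markers 5 of 7 rose in Alb-R3, 0 of 7 in Alb-Cre and 4 of 7 in the averaged effect, where 5 of 11 Kupffer cell and macrophage markers rose. The endothelial sum was 1383 to 1404 in Alb-R3 oil, 2065 to 3571 in Alb-R3 CCl4, 2441 to 3009 in Alb-Cre oil and 2445 to 3816 in Alb-Cre CCl4. The part of these other cells in the members' changes was not tested. All 3 CCl4 values lay above all 3 oil values for 8 members in Alb-Cre, against 13.3% of all tested genes, and for 11 members in Alb-R3, against 18.1%. In the comparison of 6 against 6 libraries this held for 4 members (Nop58, Nolc1, Tsr1 and Rrp1b), against 6.8% of all tested genes. The counts of members called by limma, 2 in Alb-Cre and 6 in Alb-R3, were sensitive to single libraries. In Alb-Cre the count fell to 0 without Alb-Cre oil replicate 1 or 3 or Alb-Cre CCl4 replicate 2 or 3, to 1 without Alb-R3 oil replicate 1 or 2, and was 4 without Alb-Cre CCl4 replicate 1. Leaving out Alb-R3 CCl4 replicate 1 gave 3. In Alb-R3 it fell to 1 without Alb-R3 oil replicate 1 or 2 and to 2 without Alb-R3 CCl4 replicate 1 or Alb-Cre oil replicate 1. The 2 called without Alb-R3 CCl4 replicate 1 were Nop58 and Utp14a, so of the 6 only Nop58 was still called. The Alb-R3 count was 3 without Alb-Cre oil replicate 2, Alb-R3 oil replicate 3, Alb-Cre CCl4 replicate 3 or Alb-R3 CCl4 replicate 3. Nop58 in Alb-R3 was called in all 24 alternatives, with a log2 fold change of 1.16 to 1.71. The other Alb-R3 calls were lost in 17 of 24 for Nop56, 15 for Rrp12, 12 for Nolc1, 11 for Rcl1 and 9 for Tsr1. In Alb-Cre the call was lost in 11 of 24 for Rrp1b and 5 for Nop58.

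**Figure D2:**
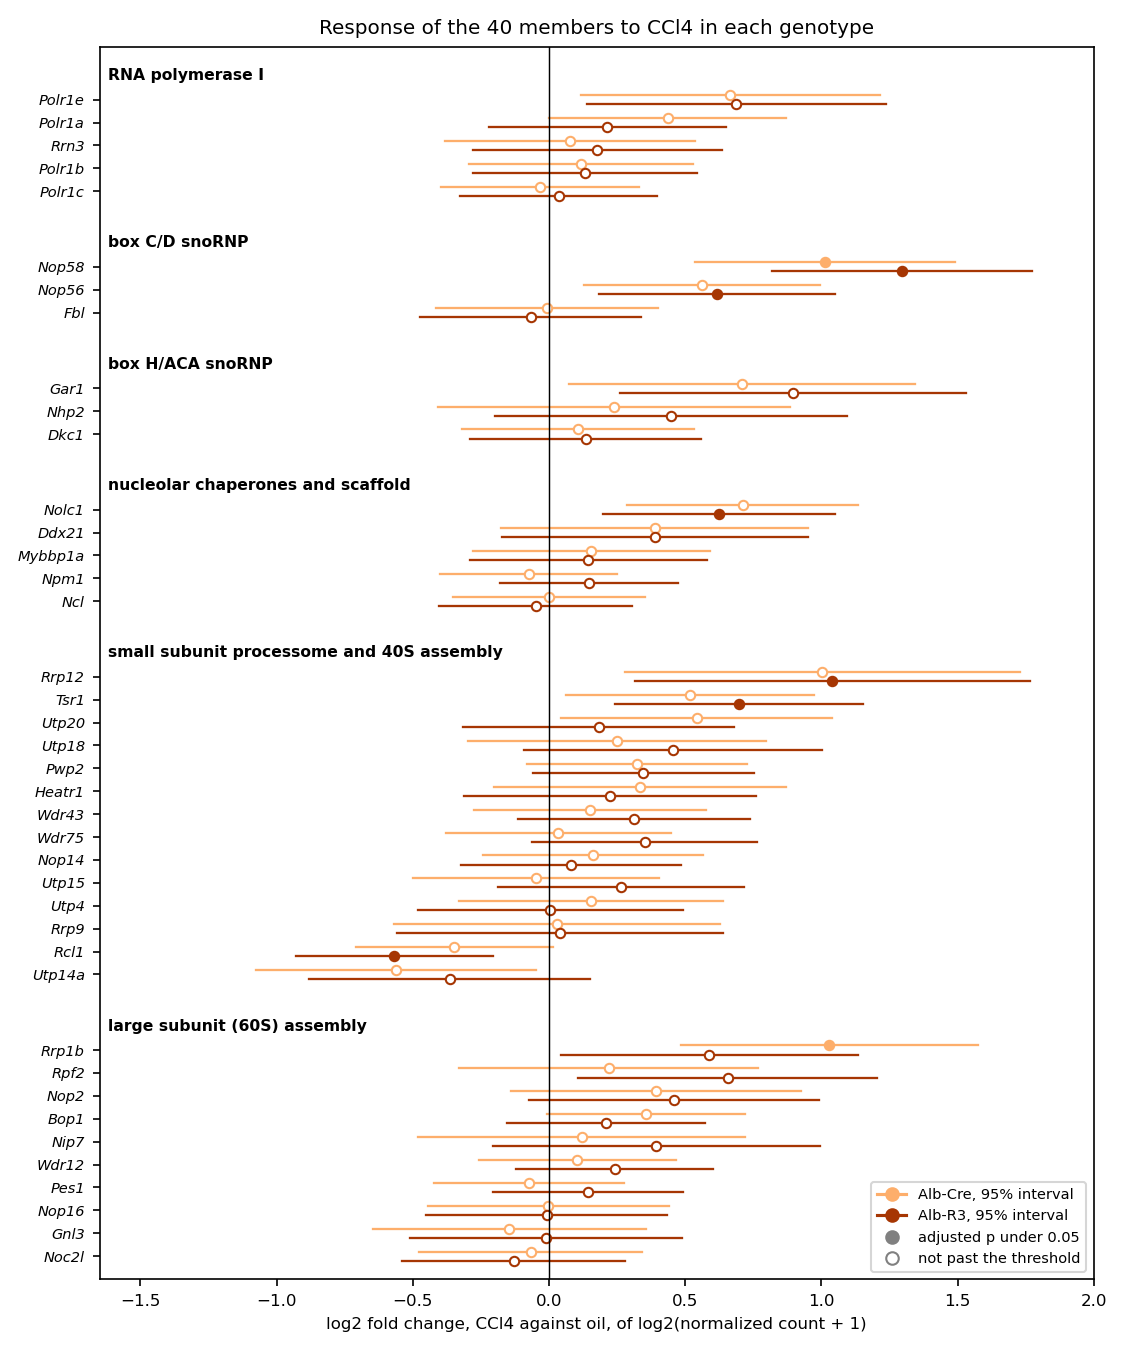
Log2 fold change of CCl4 against oil (x axis) for the 40 members in Alb-Cre (light) and Alb-R3 (dark), grouped by role, with 95% intervals from limma. Filled points passed the adjusted threshold: 2 in Alb-Cre (Rrp1b and Nop58) and 6 in Alb-R3, where Nop58 has the largest fold change.

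Of the 5 RNA polymerase I genes, 1 rose in the averaged effect and 0 fell, and all 5 estimates were above 0, with a median of 0.13. Polr1e, a subunit that helps the enzyme engage its promoter, was at 88.2, 98.2 and 93.1 in Alb-Cre oil (replicates 1, 2 and 3, the order used throughout) and 138, 99.7 and 119 in Alb-R3 oil. It was then at 110, 183 and 162 in Alb-Cre CCl4 and 256, 163 and 167 in Alb-R3 CCl4. Within each genotype the CCl4 libraries lay above the oil libraries, but Alb-R3 oil replicate 1 lay above Alb-Cre CCl4 replicate 1. The averaged log2 fold change of Polr1e was 0.68 ± 0.18 (SE), with a limma adjusted p of 0.0165.

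Estimates for the catalytic core of the polymerase were smaller than for Polr1e, a difference that was not tested. Polr1a, its largest subunit, was at 503, 434 and 358 in Alb-Cre oil and 416, 502 and 487 in Alb-R3 oil, then at 496, 617 and 633 in Alb-Cre CCl4 and 693, 421 and 545 in Alb-R3 CCl4. The groups overlapped, and the averaged log2 fold change of 0.33 ± 0.14 (SE) did not pass (limma adjusted p = 0.125). Polr1b, the other large core subunit, was at 376, 315 and 323 in Alb-Cre oil and 329, 340 and 351 in Alb-R3 oil, against 311, 362 and 436 in Alb-Cre CCl4 and 471, 300 and 367 in Alb-R3 CCl4. Its values overlapped between treatments, with a log2 fold change of 0.12 ± 0.14 (SE; limma adjusted p = 0.566). Rrn3, the initiation factor that brings the polymerase to the ribosomal RNA promoter, gave 0.13 ± 0.15 (SE), and Polr1c, a subunit shared with RNA polymerase III, gave 0.00 ± 0.12 (SE).

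The 3 box C/D snoRNP genes parted from each other. Nop58, a scaffold of the particle that binds the guide RNA, had the largest rise of the 40 in the averaged effect and in Alb-R3, and the next largest after Rrp1b in Alb-Cre. It was at 389, 449 and 349 in Alb-Cre oil and 408, 352 and 404 in Alb-R3 oil, then at 539, 962 and 972 in Alb-Cre CCl4 and 1099, 800 and 979 in Alb-R3 CCl4. Every CCl4 library exceeded every oil library, although Alb-Cre CCl4 replicate 1 lay well below the others. The log2 fold change was 1.01 ± 0.22 in Alb-Cre (SE; limma adjusted p = 0.0178), 1.29 ± 0.22 in Alb-R3 (SE; limma adjusted p = 0.00163) and 1.15 ± 0.16 averaged (SE; limma adjusted p = 0.000185).

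Nop56, the partner scaffold of Nop58, was at 677, 654 and 721 in Alb-Cre oil and 625, 606 and 773 in Alb-R3 oil. It stood at 726, 1241 and 1142 in Alb-Cre CCl4 and 1216, 941 and 925 in Alb-R3 CCl4. Only Alb-Cre CCl4 replicate 1 fell within the range of the oil libraries, and the averaged log2 fold change was 0.59 ± 0.14 (SE; limma adjusted p = 0.0099). Fbl, the methyltransferase of the same particle, was at 987, 898 and 1037 in Alb-Cre oil and 997, 848 and 1286 in Alb-R3 oil, against 856, 1019 and 1039 in Alb-Cre CCl4 and 1191, 1012 and 784 in Alb-R3 CCl4. Its values overlapped fully, with an averaged log2 fold change of -0.04 ± 0.13 (SE) and a 95% interval of -0.33 to 0.25. Fbl is uncertain, because 690 bases of its transcript are 99.6% identical to a stretch of a Tulp4 transcript, and Tulp4 has values of its own in the table, up to 842.8.

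Among the 3 box H/ACA snoRNP genes 1 rose. Gar1, a core protein that helps the particle turn over its RNA substrate, was at 121, 124 and 131 in Alb-Cre oil and 126, 105 and 162 in Alb-R3 oil, then at 141, 287 and 214 in Alb-Cre CCl4 and 354, 207 and 192 in Alb-R3 CCl4. Alb-R3 oil replicate 3 lay above Alb-Cre CCl4 replicate 1, and the other CCl4 libraries exceeded all oil libraries. The averaged log2 fold change was 0.80 ± 0.21 (SE; limma adjusted p = 0.0146).

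Nhp2, another core protein, was at 547, 494 and 881 in Alb-Cre oil and 619, 485 and 963 in Alb-R3 oil, against 607, 812 and 795 in Alb-Cre CCl4 and 1256, 922 and 636 in Alb-R3 CCl4. Replicate 3 was high in both oil groups, the groups overlapped, and the estimate of 0.34 ± 0.21 (SE) did not pass (limma adjusted p = 0.279). Dkc1, the pseudouridine synthase of the particle, was at 487, 458 and 288 in Alb-Cre oil and 399, 405 and 347 in Alb-R3 oil, against 385, 436 and 477 in Alb-Cre CCl4 and 390, 443 and 430 in Alb-R3 CCl4. The ranges overlapped, with 0.12 ± 0.14 (SE; limma adjusted p = 0.596).

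Of the 5 nucleolar chaperones and scaffold proteins, 1 rose, and Ncl and Npm1, with the highest values of the 5, did not pass the threshold. Nolc1, a chaperone of snoRNPs that shuttles between nucleolus and Cajal bodies, was at 591, 615 and 562 in Alb-Cre oil and 453, 538 and 634 in Alb-R3 oil. It reached 706, 1230 and 1036 in Alb-Cre CCl4 and 884, 763 and 841 in Alb-R3 CCl4. No CCl4 library fell among the oil libraries, and the averaged log2 fold change was 0.67 ± 0.14 (SE; limma adjusted p = 0.00413).

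Ncl, nucleolin, an RNA-binding protein of the nucleolus, was at 4551, 4227 and 3331 in Alb-Cre oil, 3306, 3870 and 3745 in Alb-R3 oil, 3463, 4117 and 4491 in Alb-Cre CCl4 and 3213, 3725 and 3613 in Alb-R3 CCl4. Npm1, nucleophosmin, a histone and ribosome chaperone, was at 2630, 3145 and 2609 in Alb-Cre oil, 2586, 2727 and 2530 in Alb-R3 oil, 2429, 2731 and 2786 in Alb-Cre CCl4 and 3458, 2717 and 2581 in Alb-R3 CCl4. Both overlapped between oil and CCl4. The averaged log2 fold change was -0.02 ± 0.12 (SE) for Ncl and 0.04 ± 0.11 (SE) for Npm1, with 95% intervals of -0.27 to 0.22 and -0.19 to 0.27. On both alternative scales named above, Npm1 was among the members that rose and Ncl was not.

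Ddx21, a helicase that works with RNA polymerase I and on box C/D snoRNAs, was at 840, 901 and 474 in Alb-Cre oil and 594, 805 and 600 in Alb-R3 oil, against 699, 1007 and 1145 in Alb-Cre CCl4 and 704, 880 and 1041 in Alb-R3 CCl4. The groups overlapped and the estimate of 0.39 ± 0.18 (SE) did not pass (limma adjusted p = 0.156). Mybbp1a, a nucleolar Myb-binding protein, was at 1336, 1329 and 1236 in Alb-Cre oil, 1355, 1240 and 1451 in Alb-R3 oil, 1065, 1851 and 1538 in Alb-Cre CCl4 and 1893, 1347 and 1292 in Alb-R3 CCl4. It ranged more widely after CCl4 and overlapped between treatments, at 0.15 ± 0.14 (SE; limma adjusted p = 0.507).

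The 14 genes of the small subunit processome and later small subunit assembly held 2 that rose and the only member that fell, with a median of 0.21. Rrp12, which accompanies both pre-ribosomal subunits out of the nucleus, was at 117, 169 and 109 in Alb-Cre oil and 112, 116 and 194 in Alb-R3 oil. It was then at 161, 380 and 285 in Alb-Cre CCl4 and 384, 220 and 261 in Alb-R3 CCl4. Alb-Cre CCl4 replicate 1 lay within the oil range and the other CCl4 libraries above it, with an averaged log2 fold change of 1.02 ± 0.24 (SE; limma adjusted p = 0.00805).

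Tsr1, a GTPase-like factor of late small subunit maturation, was at 347, 404 and 351 in Alb-Cre oil and 332, 347 and 371 in Alb-R3 oil, then at 405, 566 and 629 in Alb-Cre CCl4 and 771, 499 and 475 in Alb-R3 CCl4. Treatments did not overlap, but the lowest CCl4 library exceeded the highest oil library by little. The averaged log2 fold change was 0.61 ± 0.15 (SE; limma adjusted p = 0.011).

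Rcl1, a cyclase-like factor needed to release the small subunit rRNA from its precursor, went the other way. It was at 5108, 3492 and 4346 in Alb-Cre oil and 5098, 4456 and 4421 in Alb-R3 oil, against 3160, 3732 and 3190 in Alb-Cre CCl4 and 2945, 3558 and 2945 in Alb-R3 CCl4. Within Alb-R3 all CCl4 libraries lay below all oil libraries, while Alb-Cre oil replicate 2 was below Alb-Cre CCl4 replicate 2. The log2 fold change was -0.35 ± 0.17 in Alb-Cre (SE; limma adjusted p = 0.316), -0.57 ± 0.17 in Alb-R3 (SE; limma adjusted p = 0.0333) and -0.46 ± 0.12 averaged (SE; limma adjusted p = 0.0146).

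Of the other 11 small subunit genes, Utp14a was the only one with a negative estimate, at -0.46 ± 0.17 (SE), which did not pass (limma adjusted p = 0.0672). In Alb-R3 CCl4 replicate 1 it was at 652, while the other 5 CCl4 libraries were at 324 to 433 and the oil libraries at 484 to 674. Without that library Utp14a was called lower. The remaining 10, among them Utp20, Pwp2, Heatr1 and Wdr43 of the processome, gave averaged estimates from 0.04 for Rrp9 to 0.36 for Utp20, none past the threshold.

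Of the 10 large subunit assembly genes, 1 rose and 0 fell, with a median of 0.22. Rrp1b, a nucleolar protein of large subunit maturation, was at 99.7, 120 and 70.4 in Alb-Cre oil and 104, 107 and 115 in Alb-R3 oil, then at 163, 225 and 197 in Alb-Cre CCl4 and 212, 130 and 159 in Alb-R3 CCl4. Treatments did not overlap. The log2 fold change was 1.03 ± 0.25 in Alb-Cre (SE; limma adjusted p = 0.0346), 0.59 ± 0.25 in Alb-R3 (SE; limma adjusted p = 0.132) and 0.81 ± 0.18 averaged (SE; limma adjusted p = 0.00597). The difference between the genotypes, -0.44 ± 0.36 (SE), did not pass (limma adjusted p = 0.898).

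Nop2, an rRNA methyltransferase, was at 503, 457 and 343 in Alb-Cre oil and 311, 321 and 511 in Alb-R3 oil, against 399, 622 and 720 in Alb-Cre CCl4 and 521, 485 and 523 in Alb-R3 CCl4. Rpf2, which helps place a small ribonucleoprotein into the pre-ribosome, was at 176, 212 and 209 in Alb-Cre oil and 140, 135 and 212 in Alb-R3 oil, against 177, 264 and 264 in Alb-Cre CCl4 and 338, 199 and 234 in Alb-R3 CCl4. Both overlapped between treatments, and their estimates of 0.43 ± 0.17 (SE; Nop2) and 0.44 ± 0.18 (SE; Rpf2) did not pass (limma adjusted p = 0.102 and 0.103). Pes1, Bop1 and Wdr12, which form the PeBoW complex, gave 0.04, 0.28 and 0.17. Nip7, Nop16, Noc2l and the nucleostemin gene Gnl3 gave 0.26, -0.01, -0.10 and -0.08, none past the threshold.

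Per length, on the deposited FPKM scale, the 40 genes spanned a wide range of levels. Npm1 averaged 80.7 over the 12 libraries (62.8 to 93.8), Rcl1 63.2 (44.9 to 78.3), Ncl 49.6 (38.5 to 66.3) and Fbl 31.5 (24.7 to 37.5). Among these 4, neighbours overlapped in their ranges except Ncl and Fbl. At the other end Rrp12 averaged 1.495 (0.706 to 2.73). Members that rose in the averaged effect on normalized counts ranged from Rrp12 to Nop56 at 24.6. Of the 4 with the highest levels, Npm1, Ncl and Fbl did not pass there and Rcl1 fell. Tested on FPKM itself, Npm1 rose, and Ncl, Fbl and Rcl1 did not pass.

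Libraries within a group moved many members together. Alb-Cre CCl4 replicate 1 was the lowest of its group in 38 of 40 members, all but Utp14a and Noc2l, whereas it was lowest for 29.6% of all tested genes. Alb-R3 CCl4 replicate 1 was the highest of its group in 30 of 40 members, against 41% of all tested genes. The mean log2 level of the 40, relative to the 12-library mean, was -0.18 in Alb-Cre CCl4 replicate 1, inside the oil range of -0.274 to -0.00492, and 0.26 and 0.29 in replicates 2 and 3. In Alb-R3 CCl4 it was 0.37, 0.03 and 0.02.

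Mitotic transcript was compared library by library with the members. All 15 mitosis genes listed, led by Cdc20 and Mki67, rose in the averaged effect, by a median of 6.45 on the log2 scale. Their summed normalized count was 83.8 to 173 in the oil libraries. It was 14070, 6209 and 14040 in Alb-Cre CCl4 and 4825, 19650 and 22000 in Alb-R3 CCl4. Alb-R3 CCl4 replicate 1, with the highest mean log2 normalized count of the 40 members, had the lowest mitosis sum of the 6 CCl4 libraries. As a share of the library total, its members took 0.0963%, against 0.101% and 0.103% in Alb-R3 CCl4 replicates 2 and 3. Those totals include mitochondrially encoded genes, which took 32.3% in replicate 1 and 7.22% and 7.85% in replicates 2 and 3. The lower share thus does not show that the members were lower in replicate 1. With 3 libraries a group, no relation between the sums was tested.

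**Figure D3:**
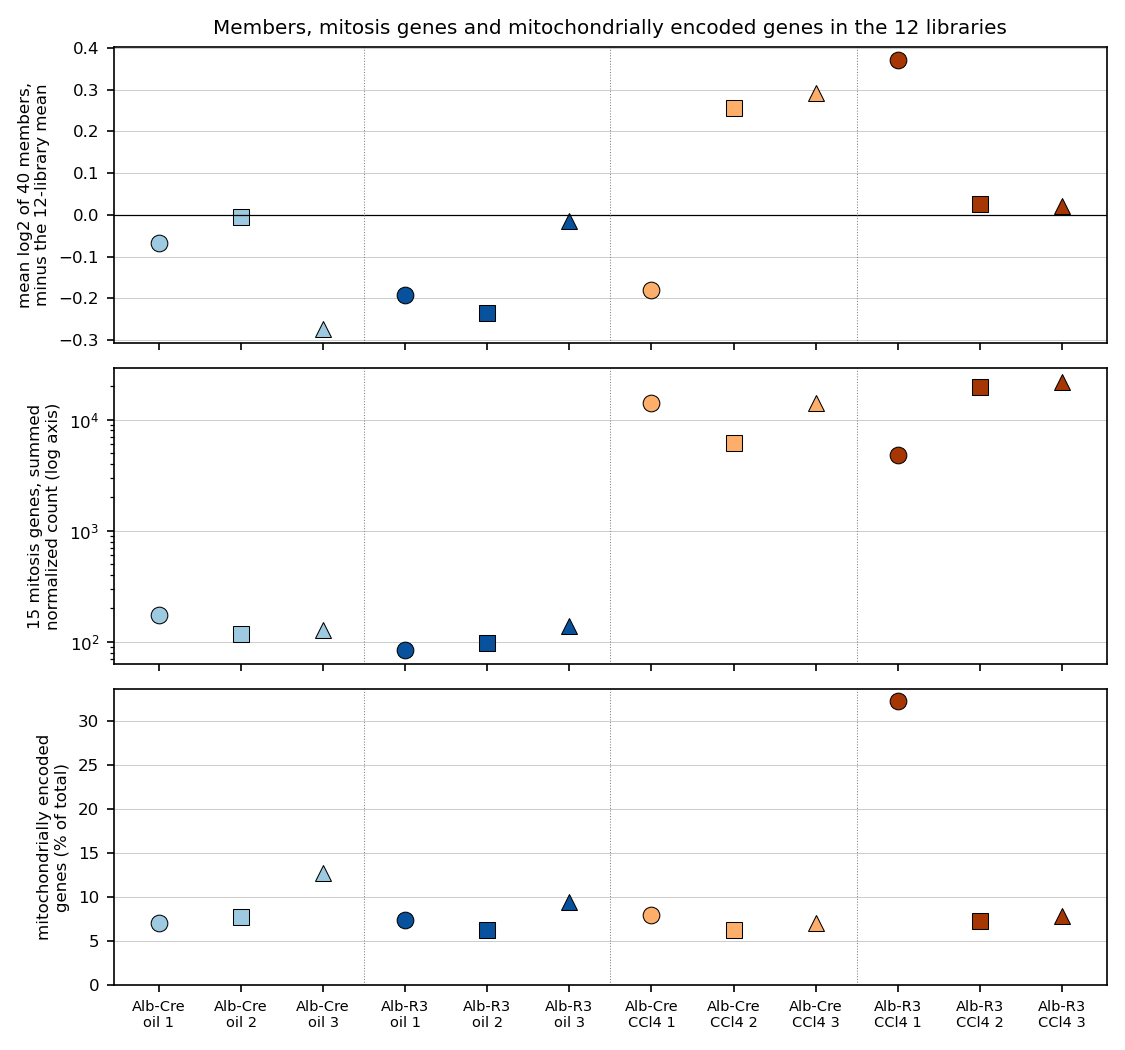
For each of the 12 libraries (x axis): mean log2 level of the 40 members minus the 12-library mean (top), summed normalized count of 15 mitosis genes on a log axis (middle) and share of mitochondrially encoded genes (bottom). Alb-Cre CCl4 replicate 1 lies at -0.18 in the top panel with a mitosis sum of 14070, and Alb-R3 CCl4 replicate 1 at 0.37 with 4825 and a mitochondrial share of 32.3%.

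Between the genotypes, no member passed the test after oil, after CCl4 or in its response to CCl4. After oil, limma called 0 of 40 members at an adjusted p under 0.05, against 0.207% of all tested genes, and 0 had an unadjusted p under 0.05, against 6.49%. After CCl4 it called 0, against 0.173%, and 0 had an unadjusted p under 0.05, against 7.77%. For the difference in response it called 0, against 0%, and 0 had an unadjusted p under 0.05, against 7.49%. The members' median difference between Alb-R3 and Alb-Cre was -0.05 after oil, with 15 of 40 estimates above 0, and 0.02 after CCl4, with 22 above 0. All 40 intervals of 95% lay within 1 log2 unit of 0 in both comparisons. They reached from -0.87 (Rpf2) to 0.89 (Polr1e) after oil and from -0.84 (Utp20) to 0.95 (Nhp2) after CCl4. For the difference in response, 33 of 40 intervals lay within 1 log2 unit, from -1.21 at the lowest for Rrp1b to 1.22 at the highest for Rpf2. Which way the members leaned rested on single libraries. After oil the median was 0.01 (23 above 0) without Alb-Cre oil replicate 2, -0.11 (10 above 0) without Alb-R3 oil replicate 3, and -0.13 (9 above 0) without Alb-Cre oil replicate 3. After CCl4, without Alb-R3 CCl4 replicate 1 only 10 of 40 estimates were above 0 (median -0.11), and without Alb-Cre CCl4 replicate 1 only 8 (median -0.13).

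**Figure D4:**
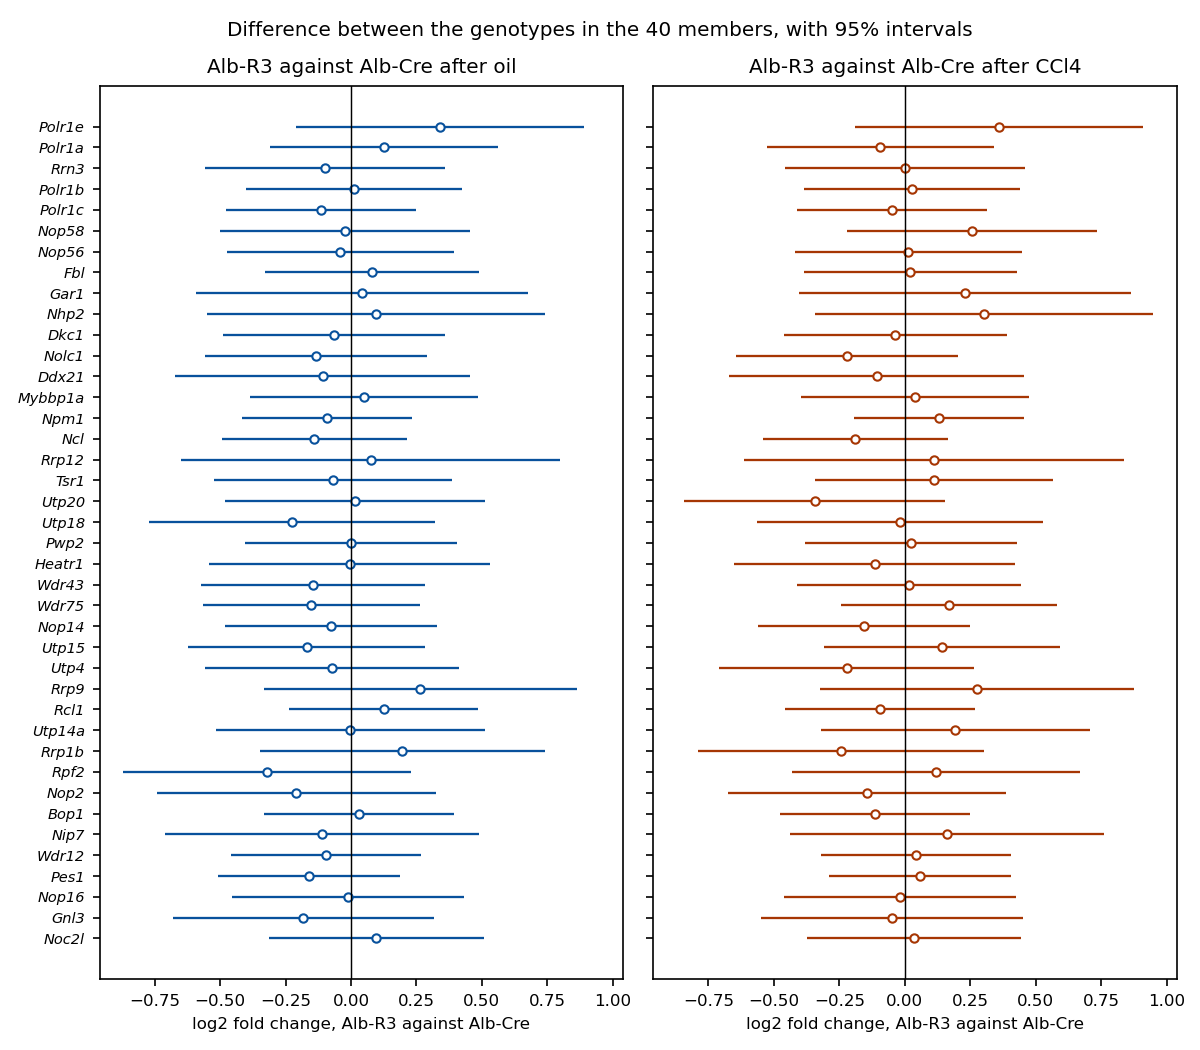
Log2 fold change of Alb-R3 against Alb-Cre (x axis) for the 40 members (y axis) after oil (left) and after CCl4 (right), with 95% intervals from limma. None of the 40 passed in either panel, and all intervals lie between -0.87 and 0.95.

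Other genes of the pathway came from 4 lists. Of 117 other ribosome biogenesis genes, 10 rose and 6 fell in the averaged CCl4 effect, 13.7% against 21.6% of all tested genes, with a median log2 fold change of 0.15 and 80 of 117 estimates above 0. With 1 library left out, 6 rose without Alb-R3 oil replicate 1 or 2 and 5 without Alb-Cre CCl4 replicate 3, and with library weights 22 rose and 10 fell. Without Alb-R3 CCl4 replicate 1, 13 rose and 7 fell. Among 17 other RNA polymerase I genes 2 rose: Tcof1, the treacle gene, by 0.51 ± 0.13 (SE) and Taf1d, of the promoter-binding factor SL1, by 0.41 ± 0.11 (SE). Among 11 other snoRNP genes Ruvbl2, an ATPase of snoRNP assembly, rose by 0.61, and Nop10, a box H/ACA core protein, fell by 0.56. Of 42 other small subunit factors 3 rose and 3 fell. Bysl and Noc4l had the largest rises there, at 0.66 and 0.41, and Fcf1, a nuclease of the processome, and Imp3 the largest falls, at -0.52 and -0.41. Of 47 other large subunit factors 4 rose and 2 fell. Lyar and Noc3l rose by 0.52 each, Sbds, needed to free new large subunits of a late factor, fell by 0.57, and Nsa2 fell by 0.28. Of 56 cytosolic ribosomal protein genes, 1 rose (Rpl3, by 0.56) and 0 fell, with a median of 0.07 that became -0.03 without Alb-R3 CCl4 replicate 1. On equalized totals without mitochondrially encoded genes, 67 of the 117 rose and 0 fell, and 18 of the 56 rose. The median of all tested genes also rose on that scale, and the share of them called on it is not given here.

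Sequence upstream of the genes was compared because members of this pathway are often described with the CACGTG letters that Myc and Max bind. RefSeq (GRCm38.p6) gave a window from 250 bases before to 50 bases after the start for 36 of the 40 members, with no entry for Fbl, Npm1, Rrp12 and Bop1. The letters CACGTG, the same on both strands, occurred in 10 of 36 members (27.8%) against 10.7% of the 12190 tested protein-coding genes with a window. CCGGAA or its reverse TTCCGG, the core bound by ETS factors, occurred in 18 of 36 (50%) against 27.1%. GGGCGG or its reverse CCGCCC, the GC box, occurred in 29 of 36 (80.6%) against 61.4%. These are counts of letters, with no test of binding and no test of the difference, and promoters of this kind are GC-rich.

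Of the 7 risers with a window, 1 held CACGTG (Tsr1, 25 bases after the start), and 5 held CCGGAA or TTCCGG (Nop58, Gar1, Nolc1, Polr1e and Tsr1). Shown here are the bases before the start of Nop58, the member that rose most and has no CACGTG, and of Rrn3 and Nop2, which hold CACGTG and did not pass. Positions are on GRCm38.p6, all on the plus strand: Nop58 at chr1:59684756-59684970 (ending where the GENCODE gene begins), Rrn3 at chr16:13780449-13780698 and Nop2 at chr6:125131633-125131882. Capitals mark CACGTG and, in either orientation, CCGGAA, where they lie wholly before the start.
Nop58: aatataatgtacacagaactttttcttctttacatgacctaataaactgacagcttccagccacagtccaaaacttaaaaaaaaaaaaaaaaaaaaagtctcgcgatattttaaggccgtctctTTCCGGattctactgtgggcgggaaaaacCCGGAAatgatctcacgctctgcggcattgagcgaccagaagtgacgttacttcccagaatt
Rrn3: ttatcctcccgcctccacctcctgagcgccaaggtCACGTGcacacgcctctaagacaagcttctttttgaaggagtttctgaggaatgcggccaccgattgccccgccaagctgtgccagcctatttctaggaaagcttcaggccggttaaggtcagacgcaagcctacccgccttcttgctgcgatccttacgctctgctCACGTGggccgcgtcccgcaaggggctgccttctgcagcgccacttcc
Nop2: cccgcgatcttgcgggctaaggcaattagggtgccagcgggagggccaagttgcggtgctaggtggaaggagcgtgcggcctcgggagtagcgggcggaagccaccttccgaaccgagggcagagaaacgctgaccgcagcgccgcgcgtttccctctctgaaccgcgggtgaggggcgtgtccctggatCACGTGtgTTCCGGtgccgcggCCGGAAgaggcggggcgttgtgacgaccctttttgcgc

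In Nop2 the CACGTG begins 60 bases before the start and is followed by TTCCGG and CCGGAA, 52 and 38 bases before it. Rrn3 holds CACGTG at 215 and 48 bases before its start, and Nop58 holds TTCCGG and CCGGAA at 126 and 97 bases, all counted from the RefSeq start. The stretch shown for Nop58 stops short of that start, at the GENCODE gene, whereas the other 2 run up to it. Rrn3 also holds CCGGAA or its reverse 4 bases before and 20 bases after its start, outside the capitals. All 3 genes thus hold CCGGAA or its reverse, and no relation between these letters and the response was tested.

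A set of 7 members also carry snoRNA genes within them on the same strand, in GENCODE M21 on GRCm38. They are Nop56 (5 snoRNA genes), Nop58 (4), Ncl, Wdr43 and Gnl3 (3 each), Tsr1 (2) and Dkc1 (1), which makes 17.5% of the members against 1.62% of 15744 tested protein-coding genes. Of these 7 hosts 3 rose in the averaged effect (Nop56, Nop58 and Tsr1), and of the other 33 members 5 rose. This was not tested as a difference. Of the 9 called members, Nop56, Tsr1 and Rrp1b share exon sequence with a gene on the opposite strand (Idh3b, Srr and Hsf2bp), and no source used here says whether the counting used strand, so reads of such pairs may not have been told apart. In the annotation, 4 other genes have transcripts matching 732 to 760 of the 1877 bases of Nop56, at 90.9% to 99.3% identity. Npm1 has 7 such partial matches, over 552 to 879 of 1633 bases at 91.5% to 97.3%. Gar1, Mybbp1a, Nhp2, Pes1 and Rpf2 also have partial matches. None of these matching genes has values in the deposited data.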

How the data were processed

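The authors deposited, per the file headers, a normalized count (here a signal, not whole reads) and an FPKM value per gene and sample. Tools named in the submitters' processing notes, without roles, are edgeR and kallisto 0.44.0, with the build GRCm38.p6. Only 70.2% to 74.4% of low normalized counts per library were whole multiples of 1 read (tolerance 0.02), so no count model was used. Depth was 28000000 to 39600000 estimated reads per library, and all 12 replicate pairs differed by more than counting noise.

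Normalized counts were analysed as log2(value + 1) with limma 3.58.1 in R 4.3.3, which understates the change of low genes. The 20244 genes that reached a value of 1 in 3 or more samples entered 1 model with 4 group coefficients, 8 residual degrees of freedom and a mean-variance trend. There were 6 comparisons: the CCl4 effect per genotype and averaged, the genotype difference per treatment, and their interaction. They share libraries. The threshold was a Benjamini-Hochberg adjusted p of 0.05. Samples were grouped by their titles.

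Values in every sample were given for Fbl, Ncl, Npm1, Polr1a and, in each of the 6 role groups, the 3 members of smallest p in the averaged effect. From each other list, up to 2 genes of largest fold in each direction past the threshold were named. Utp14a and further members were named after their values were seen. The members, lists and tests were chosen with earlier results of these data known. Gene positions are from GENCODE M21, and promoter sequences from RefSeq.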

Additional observations from a re-analysis of the deposited data

How the results depend on the processing

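Over 399 refits of called values, 314 kept the call, 85 lost it and 0 reversed direction. These refits reuse the same libraries and cover only members already called, so they are no independent test of direction. The averaged count of 9 became 28 with equal totals without mitochondrially encoded genes and 22 on FPKM. It was 6 under quantile normalization, 12 with library weights and 9 to 10 with 1 library left out. Counts in this paragraph are given without the share of all tested genes called under the same setting. The Alb-Cre count of 2 became 1 under quantile normalization, 5 with equal totals, 7 on FPKM, 0 without the trend, 9 with library weights and 1 in a fit of only the samples compared, and was 0 to 4 with 1 library left out. The Alb-R3 count of 6 became 3 under quantile normalization, 21 with equal totals, 10 on FPKM, 3 without a filter, 1 without the trend and 1 in a fit of only the samples compared, and was 1 to 7 with 1 library left out. With the replicate number as a replicate block, the averaged count was 9, the Alb-Cre count 1 and the Alb-R3 count 1. The numbers are not shown to pair samples, since same-numbered samples had residual correlations of -0.186 to 0.196, with 3 of 18 above 0.1. The genotype counts and the interaction count were 0 under each alternative, at 3 samples a group. Apart from the scales, the cause of these shifts was not tested. The lowest value of the members named was 70.4 normalized counts (Rrp1b, Alb-Cre oil replicate 3).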

Other observations

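After CCl4, nearly all cytosolic ribosomal protein genes had estimates above 0 for Alb-R3 against Alb-Cre, although none passed the test. Of 56 genes, 55 had a positive estimate, with a median log2 difference of 0.41 and 0 called by limma, and 4 (7.14%) at an unadjusted p under 0.05, against 7.77% of all tested genes. The median was 0.18 without Alb-R3 CCl4 replicate 1. As a share of the total they took 1.58% to 2.02% in the Alb-R3 CCl4 libraries and 1.303% to 1.453% in the Alb-Cre CCl4 libraries, without overlap. After oil, where 22 of 56 estimates were positive, the shares were 1.03% to 1.47% in Alb-R3 and 1.144% to 1.503% in Alb-Cre. The difference between the genotypes in the CCl4 response was positive for all 56 genes (median 0.41), with 0 called and 0 at an unadjusted p under 0.05. Without Alb-R3 CCl4 replicate 1, the library with 32.3% mitochondrially encoded transcript and a ribosomal protein share of 2.02%, the difference in response was positive for 55 of 56, with a median of 0.21. Of the 40 ribosome biogenesis genes only 15 were then positive. Kupffer cell and macrophage markers also had 11 of 11 estimates above 0 for Alb-R3 against Alb-Cre after CCl4, with 0 called. Their sum was 2551 to 15210 in Alb-R3 CCl4 and 1590 to 2076 in Alb-Cre CCl4. The part of these cells, or of other features of Alb-R3 CCl4 replicate 1, in the ribosomal protein pattern was not tested.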
